A study of Mus musculus with 4 samples.

Results

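The genes described here were Pcdh11x, Ctnnd2, Dcc and Cdh6, 4 of the 32288 features counted in single cells of the embryonic mouse hindlimb. They were taken by symbol, and they had been selected because their measured levels were higher with p21 than in control cells, so every p21 against control value below is a description with no test. The tissue was whole hindlimb collected at E14.5 in 2 collections, each sorted into a tdT-positive and a tdT-negative library (S1 and S2, then S3 and S4), with limbs of 2 to 3 embryos pooled per sample by the study's description. All embryos were on an outbred SwissWebster background, carried Gli1 CreER/+, R26 LSL-tdTom/+ and Tigre TRE-p21/+, had received doxycycline (Dox, 1 mg/ml in water with 0.5% sucrose) from E12.5, and had been exposed to tamoxifen (TM, 120 µg/g) at E13.5. The p21 embryos (Pan-Cart-p21MOE) also carried Col2a1-rtTA, whose Col2a1 promoter switches the p21 transgene on in chondrocytes, in a mosaic pattern. Control embryos lacked Col2a1-rtTA. The tdT label marked the Gli1 lineage.

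Each library mixed p21 and control embryos of opposite sex, and each cell was given its condition from Xist and 4 Y-linked genes, following the study's methods. In S1 and S2 the p21 cells were male, and in S3 and S4 they were female. The 8 sums of cells (4 libraries by 2 conditions) therefore came from 2 embryo sources per condition, and p-values below measure the spread between these sums, part of which is technical. The study's methods also name a single experimental female, so the p21 cells of S3 and S4, 169 and 293 of the 545 p21 chondrocytes, may come from 1 embryo. Of 18955 barcodes, 6873 passed the filters, 3723 of these had too few sex-linked counts to be assigned and 2738 were kept after doublet filters, 1762 from p21 and 976 from control embryos. Clustering without the 4 genes placed 901 of the kept cells in chondrocyte clusters (545 p21, 356 control) and 1837 in other clusters. All 12 chondrocyte markers were detected in the chondrocytes, whose summed marker level was 20436 to 24781 CPM, that is, UMIs scaled to a common depth, against 4084 to 6886 in the other cells. Median depth in chondrocytes was 12465 to 29858 unique molecular identifiers (UMIs) per cell, and the smallest sums held 33 cells (p21, S2) and 50 cells (p21, S1). WPRE, an RNA-stabilising element carried by transgenes in these mice, was at 1116 to 1917 CPM in p21 chondrocytes and 70.5 to 698 CPM in control chondrocytes, so the groups did not overlap. Cdkn1a, which encodes p21, did overlap, with 53.3 to 68.2 CPM in p21 and 23.2 to 95.8 CPM in control chondrocytes. By the study's account, the p21 and tdTom transgenes are read mostly as WPRE in these libraries. Cdkn1a counts thus need not report the p21 transgene.

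The 4 genes encode proteins that let cells hold on to or steer past one another. Pcdh11x encodes an X-linked protocadherin of the δ class, and Cdh6 encodes a classical type II cadherin (K-cadherin). Ctnnd2 encodes δ-catenin, an armadillo protein of the p120 family that binds the juxtamembrane part of classical cadherins. Dcc encodes a receptor for netrins, best known for guiding commissural axons. All are described mostly in the nervous system, and Cdh6 also in the kidney and in limb and craniofacial mesenchyme.

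The promoters of Ctnnd2 and Cdh6, which lie on the same chromosome, are shown as background. The counts below do not tell where a transcript starts. The windows are 300 bases long, lie mostly before the RefSeq start and end shortly after it in GRCm38.p6, and capitals mark ACAAAG, a form of the core bound by SOX factors, searched on both strands. The Ctnnd2 window is chr15:30172284-30172583 on the plus strand, and that of Cdh6 chr15:13173626-13173925 on the minus strand. By the GENCODE start of Ctnnd2, 30172593, its window lies wholly before the gene.
Ctnnd2: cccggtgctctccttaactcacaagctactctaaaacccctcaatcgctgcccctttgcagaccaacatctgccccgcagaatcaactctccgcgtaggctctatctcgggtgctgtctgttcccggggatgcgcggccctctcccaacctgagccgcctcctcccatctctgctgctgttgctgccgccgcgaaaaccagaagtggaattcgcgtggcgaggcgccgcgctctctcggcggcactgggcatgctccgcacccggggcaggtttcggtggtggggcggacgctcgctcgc
Cdh6: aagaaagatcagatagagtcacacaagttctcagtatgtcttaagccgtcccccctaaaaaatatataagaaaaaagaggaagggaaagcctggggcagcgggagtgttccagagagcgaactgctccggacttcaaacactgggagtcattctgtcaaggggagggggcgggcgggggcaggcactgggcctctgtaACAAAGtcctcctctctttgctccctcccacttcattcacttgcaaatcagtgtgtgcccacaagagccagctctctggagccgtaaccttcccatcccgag
The Ctnnd2 window held 28 CG pairs, more than 85.8% of the 32851 RefSeq promoters of this length, where the median was 7. The Cdh6 window held 8 CG pairs, more than 51.4% of promoters. ACAAAG occurred once in the Cdh6 window and not in that of Ctnnd2, and 18.7% of all promoters held it.

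Pcdh11x, Ctnnd2 and Dcc are among the longest genes of the mouse. In GENCODE M21 (GRCm38), Dcc (chromosome 18, 71253634 to 72351069, minus strand) spans 1097 kb and ranked 45 of 32235 features by span. Ctnnd2 (chromosome 15, 30172593 to 31029341, plus strand) spans 857 kb and ranked 86. Pcdh11x (chromosome X, 120290259 to 120910619, plus strand) spans 620 kb and ranked 141. Cdh6 (chromosome 15, 13028701 to 13173675, minus strand) spans 145 kb and ranked 1708. Exons made up 1.20% of the span of Dcc and of Ctnnd2, 2.25% of Pcdh11x and 6.22% of Cdh6. Whether a UMI came from an exon or an intron is not given in the sources used here. H2afb3 overlaps Pcdh11x on the opposite strand, as 9630009A06Rik and 4930570B17Rik overlap Ctnnd2, and reads of such partners are told apart only by strand.

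All 4 genes were lower in the chondrocyte clusters than in the other clusters of the limb. Some of these other clusters also had cartilage genes among their leading genes. An unnamed cluster of 267 cells had Sox9, Sox6 and Matn4, and 1 of 12 cells had Epyc and Snorc. In the 267 cells Pcdh11x was at 127 CPM, Ctnnd2 at 19.7, Dcc at 154 and Cdh6 at 16.3. In edgeR's quasi-likelihood test on the summed counts, 25.7% of 14377 genes were lower in chondrocytes and 26.7% were higher at an adjusted p under 0.05, so a call in this contrast is common. Dcc was at 40.6 to 125 TMM-scaled CPM in the 8 chondrocyte sums and at 138 to 211 in the 8 sums of other cells, each class scaled on its own, so the ranges did not overlap. The log2 difference was -1.27 (SE 0.18, edgeR adjusted p = 5.6e-05). Cdh6 was at 3.86 to 12.9 CPM in chondrocytes and 9.27 to 51.7 in other cells, a log2 difference of -1.88 (SE 0.22, edgeR adjusted p = 8.7e-06). Pcdh11x was at 39.0 to 98.6 CPM in chondrocytes and 86.7 to 144 in other cells, a log2 difference of -0.83 (SE 0.17, edgeR adjusted p = 0.000909). Ctnnd2, at 16.8 to 63.3 CPM in chondrocytes and 21 to 83.6 CPM in other cells, had the smallest difference of the 4, -0.58 on the log2 scale (SE 0.15, edgeR adjusted p = 0.00448). The ranges of Cdh6, Pcdh11x and Ctnnd2 overlapped between the classes.

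Each gene had its own order over the 10 clusters that held enough cells in at least 3 libraries (mean CPM ± SD over libraries). The p21 and control cells of a library were counted together for this order. Pcdh11x was highest in mesenchyme-like cells (176 ± 76.3, n = 3), tenocyte-like cells (176 ± 39.9, n = 3) and perichondrium-like cells (170 ± 38.7, n = 4), followed by a chondrocyte-like cluster led by Sox5 (150 ± 43.0, n = 4). Neighbours in its order overlapped in range down to the last step, where proliferative chondrocyte-like cells stood apart at 19.8 ± 4.66 (n = 4). The place of the Sox5-led cluster rested on its p21 cells, at 204 CPM with the libraries summed, and the gene was chosen for being high with p21. In control cells this cluster was at 88.6 CPM, below tenocyte-like (189), perichondrium-like (169) and mesenchyme-like cells (112).

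Ctnnd2 was highest in an unnamed cluster led by Ebf2 (134 ± 101, n = 4) and in joint interzone-like cells (119 ± 46.9, n = 3), the cells at the site of the future joint. The interzone-like libraries lay above those of the Sox5-led chondrocyte-like cluster (57.9 ± 16, n = 4), which in turn lay above the resting chondrocyte-like cells (35.4 ± 9.0, n = 4). In control cells alone, libraries summed, the Sox5-led and resting chondrocyte-like cells were close, at 30.3 and 29.2 CPM. Ctnnd2 was lowest in perichondrium-like cells (5.38 ± 4.42, n = 4) and near that in proliferative chondrocyte-like cells (6.25 ± 0.915, n = 4). Perichondrium-like cells were thus among the top 3 of the 10 clusters for Pcdh11x and last for Ctnnd2.

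Dcc was also highest in the Ebf2-led cluster (264 ± 144, n = 4), with joint interzone-like (228 ± 186, n = 3), mesenchyme-like (213 ± 84.3, n = 3) and tenocyte-like cells (208 ± 117, n = 3) next and all overlapping in range. It went from 171 ± 75.9 (n = 4) in the Sox5-led chondrocyte-like cells to 60.7 (43.9 to 75.8 over 4 libraries) in resting and 10.1 ± 3.06 (n = 4) in proliferative chondrocyte-like cells. Cdh6 was highest in the mesenchyme-like cells (126 ± 52.5, n = 3), whose range overlapped that of the next, the Ebf2-led cluster (43.5 ± 27.4, n = 4), followed by joint interzone-like cells (34 ± 17.1, n = 3). In the Sox5-led and resting chondrocyte-like cells Cdh6 was at 8.94 ± 5.59 and 7.60 ± 4.10 (n = 4 each), and in proliferative chondrocyte-like cells at 2.87 ± 0.360 (n = 4). The proliferative chondrocyte-like cells were the lowest of the 10 clusters for Pcdh11x, Dcc and Cdh6.

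**Figure D1:**
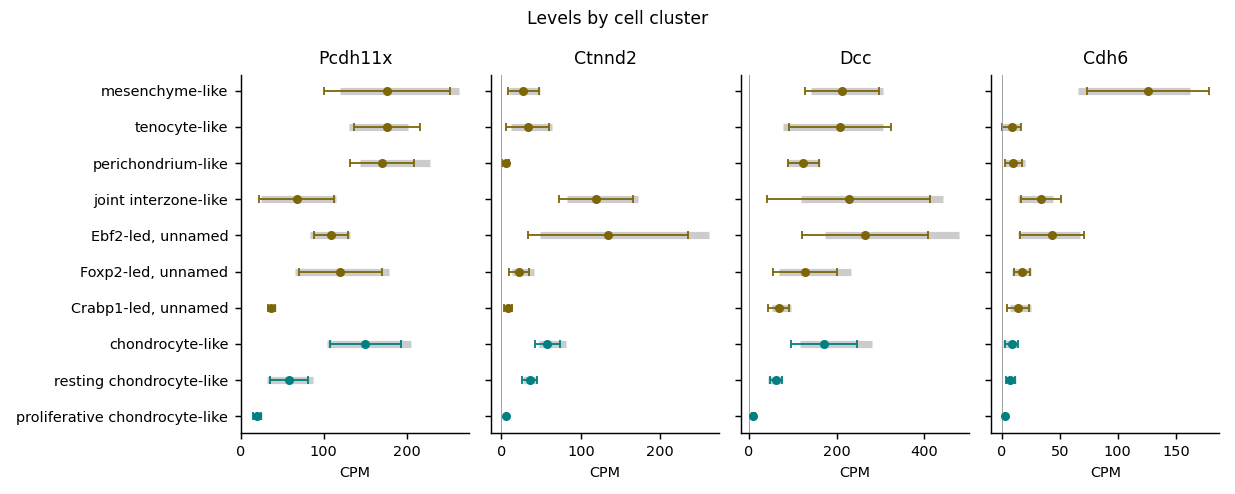
CPM (x axis) of each gene in 10 cell clusters (y axis), with the mean over libraries as a point, its SD as a thin bar and the range of libraries as a grey band; green marks chondrocyte clusters. Each library counts its p21 and control cells together. Proliferative chondrocyte-like cells sit at the low end of every panel, and mesenchyme-like cells stand out for Cdh6 at 126 CPM.

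Over 45 cluster and library points, which share libraries and depth, the member patterns were only loosely alike. The correlation of log levels was 0.60 between Pcdh11x and Dcc and 0.25 to 0.49 in the other 5 pairs. Among 9498 genes the pattern most like Pcdh11x was that of Pcsk5 (r = 0.87), the one most like Ctnnd2 that of Creb5 (0.77), the one most like Dcc that of Pkd2 (0.79) and the one most like Cdh6 that of Meis2 (0.75). Meis2, a homeobox gene of the proximal limb, was also among the leading genes of the mesenchyme-like cluster, and Creb5 among those of the interzone-like cluster.

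In chondrocytes, Pcdh11x and Ctnnd2 were higher with p21 in every library. Pcdh11x was at 71.0, 51.7, 96.8 and 98.6 TMM-scaled CPM in the p21 chondrocytes of S1, S2, S3 and S4, and at 44.6, 39.0, 39.7 and 45.1 CPM in the control chondrocytes of the same libraries. All 4 p21 values lay above all 4 control values, and the control values varied little (42.1 ± 3.22, SD, n = 4) next to the p21 values (79.5 ± 22.4, n = 4). The fitted log2 difference was 0.97 (SE 0.18). As background for such values, 0.0591% of 11836 genes were higher in p21 chondrocytes at an edgeR adjusted p under 0.05 and 0.169% were lower. Nothing is read from that share for genes chosen on this contrast.

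Ctnnd2 was at 63.3, 37.5, 30.3 and 27.6 CPM in the p21 chondrocytes of S1 to S4 and at 18.6, 18.1, 19.2 and 16.8 CPM in controls. The groups again did not overlap, but here the first collection was higher than the second among p21 chondrocytes, the reverse of Pcdh11x. Means were 39.7 ± 16.3 and 18.2 ± 1.03 (SD, n = 4 each), a fitted log2 difference of 1.02 (SE 0.24).

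Dcc was higher in 3 of 4 libraries. It was at 58.8, 50.4, 116 and 125 CPM in the p21 chondrocytes of S1 to S4 and at 40.7, 52.1, 48.6 and 40.6 CPM in controls. The difference lay mostly in the second collection, and in S2 p21 and control were alike. With means of 87.4 ± 38.2 and 45.5 ± 5.79 (SD, n = 4 each), the fitted log2 difference was 1.03 (SE 0.26), and the p21 and control values overlapped.

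Cdh6 was low in chondrocytes throughout. It was at 6.66, 12.9, 7.43 and 7.37 CPM in p21 and 3.95, 3.86, 8.21 and 6.41 CPM in control chondrocytes of S1 to S4, higher in 3 of 4 libraries and lower in S3, with overlapping groups. The fitted log2 difference was 0.53 (SE 0.34), on 117 p21 and 50 control UMIs in all. Dcc, Ctnnd2 and Pcdh11x ranked 81, 83 and 97 of 11836 genes by fitted difference, and Cdh6 ranked 554. All 4 genes passed the low-count filter.

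Per library, before TMM scaling, the ratio of p21 to control CPM in chondrocytes ran from 1.38 (S2, 95% counting interval 0.932 to 2.01) to 2.48 (S3, 1.89 to 3.31) for Pcdh11x. It ran from 1.61 (S3, 1.07 to 2.50) to 3.54 (S1, 2.39 to 5.39) for Ctnnd2. For Dcc it ran from 1.01 (S2, 0.686 to 1.45) to 3.16 (S4, 2.64 to 3.82). These intervals cover counting error only. For Cdh6 the ratio ran from 0.920 (S3, 0.471 to 1.93) to 3.48 (S2, 1.30 to 9.33), and only the S2 interval lay above 1.

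In the other cells Cdh6 had the largest fitted difference of the 4 genes and Pcdh11x the smallest. Cdh6 was at 31.3, 42.6, 22.4 and 51.7 CPM in the p21 and 14.9, 20.1, 9.27 and 30.2 CPM in the control cells of S1 to S4, higher in every library although the groups overlapped. Its fitted log2 difference was 1.03 (SE 0.19). Ctnnd2 was at 83.6, 69.3, 30.9 and 51.6 CPM in p21 and 47.3, 32.4, 21 and 42.8 in control cells, also higher in 4 of 4 libraries, with a log2 difference of 0.68 (SE 0.32) that was 0.30 without the p21 cells of S1. Single cells weighed on both. In S1, 1 cell held 163 of the 486 Ctnnd2 UMIs of its p21 sum, and fewer p21 than control cells had a Ctnnd2 UMI (19.4% against 22.9%). For Cdh6, 1 cell held 65 of 182 UMIs in S1 and 33 of 64 in S2, and 20.3% of p21 and 15.6% of control cells had a UMI.

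Dcc was at 204, 211, 203 and 153 CPM in the p21 and 173, 138, 147 and 149 CPM in the control cells of the other clusters, a log2 difference of 0.33 (SE 0.10). Pcdh11x was at 144, 122, 109 and 114 CPM in p21 and 97.7, 86.7, 135 and 138 CPM in control cells, a log2 difference of 0.08 (SE 0.15). It was higher with p21 in both libraries of the first collection and lower in both of the second, where the sexes of the conditions were swapped. Within each collection sex and condition cannot be told apart.

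**Figure D2:**
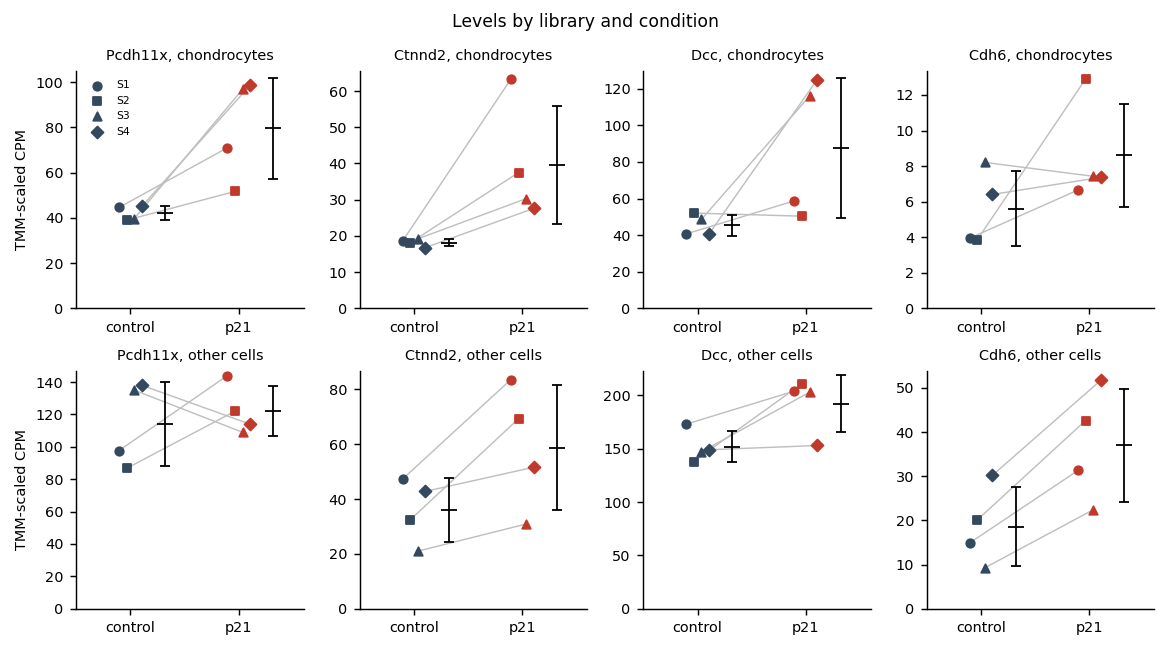
TMM-scaled CPM (y axis, from 0) of each gene in control and p21 cells, with chondrocytes in the upper and other cells in the lower panels. Each point is the sum of 1 condition in 1 library, marker shapes and grey lines join the conditions of a library, and black bars give the mean and SD of 4 libraries. In chondrocytes the p21 points of Pcdh11x (51.7 to 98.6) and Ctnnd2 (27.6 to 63.3) all sit above the control points, and in other cells the Pcdh11x lines cross.

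Within the chondrocytes, most of the difference in Pcdh11x and Ctnnd2 lay in the Sox5-led cluster, whose leading genes also include Kcnq5, Gpc6 and Sox6. Genes of at least 500 kb made up 4.08% of the UMIs of this cluster, against 2.03% in resting, 0.634% and 1.70% in the proliferative and 1.70% in the hypertrophic chondrocyte-like clusters, and the part of this in the members' values was not tested. In its p21 cells Pcdh11x was at 204 CPM against 88.6 CPM in its control cells, and this cluster held 74.2% of the Pcdh11x UMIs of p21 chondrocytes but 50% of those of control chondrocytes. Ctnnd2 was at 65.2 against 30.3 CPM there, with 66.3% of p21 and 40.5% of control UMIs. Dcc was at 233 against 127 CPM, with 71.0% and 67.4% of UMIs. Cdh6, by contrast, was at 10.8 against 12.9 CPM in this cluster.

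The Sox5-led cluster also took a larger share of p21 than of control chondrocytes in 3 of 4 libraries. Its shares were 42.0% and 29.2% for p21 and control in S1, 15.2% against 17.3% for S2, 46.7% against 37.0% for S3, and 27.3% against 23.5% for S4. The part of this share in the members' summed levels was tested only by leaving the cluster out. Within the cluster, Pcdh11x was at 155, 79.8, 182 and 244 CPM in the p21 cells of S1 to S4 and 93.9, 109, 52.3 and 91.3 CPM in controls, so S2 went the other way. Ctnnd2 was higher with p21 in the cluster in all 4 libraries (111, 195, 55.4 and 55.6 against 33.9, 19.1, 22.8 and 41.1 CPM). Dcc was lower with p21 in S1 (90.2 against 159 CPM) and higher in S2, S3 and S4 (151, 169 and 336 against 118, 132 and 116 CPM).

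The other chondrocyte clusters had lower levels of all 4 genes, both conditions together. In resting chondrocyte-like cells Pcdh11x was at 67.2 (p21) and 51.7 CPM (control), Ctnnd2 at 39.0 and 29.2, Dcc at 67.5 and 51.7 and Cdh6 at 6.72 and 7.31. Those cells were led by the heat-shock genes Hspa1a and Hspa1b. In proliferative chondrocyte-like cells Ctnnd2 was lower with p21, at 3.53 against 9.43 CPM. Dcc had a large difference in the deeper proliferative chondrocyte-like cluster led by Neat1. It was at 77.6 CPM in p21 and 3.74 CPM in control cells, where 1 p21 cell held 81 of the 221 UMIs. In hypertrophic chondrocyte-like cells Cdh6 was at 10.2 against 2.02 CPM, on 19 and 2 UMIs. Pcdh11x and Dcc were higher with p21 in 5 of 5 chondrocyte clusters with the libraries summed, and Ctnnd2 and Cdh6 in 3 of 5. Single libraries did not all follow these sums. In resting chondrocyte-like cells Pcdh11x was lower with p21 in S1 (ratio 0.755, interval 0.414 to 1.39) and S4 (0.544, interval 0.380 to 0.786). It was also lower in S1 and S3 of the first proliferative chondrocyte-like cluster (0.842 and 0.382), and in S3 of the Neat1-led cluster (0.356, interval 0.159 to 0.779) and of the hypertrophic chondrocyte-like cluster (0.722). No ratio was taken where a condition had no UMI. Pcdh11x had 0 p21 and 16 control UMIs in S2 of the first proliferative cluster. In the Neat1-led cluster it had 0 and 5 in S1, and 0 and 3 in S2. Dcc also ran against its sums in single libraries. Its ratio was 0.933 in S2 and 0.927 in S4 of the resting, 0.500 in S1 of the Neat1-led and 0.316 in S2 of the hypertrophic cluster.

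**Figure D3:**
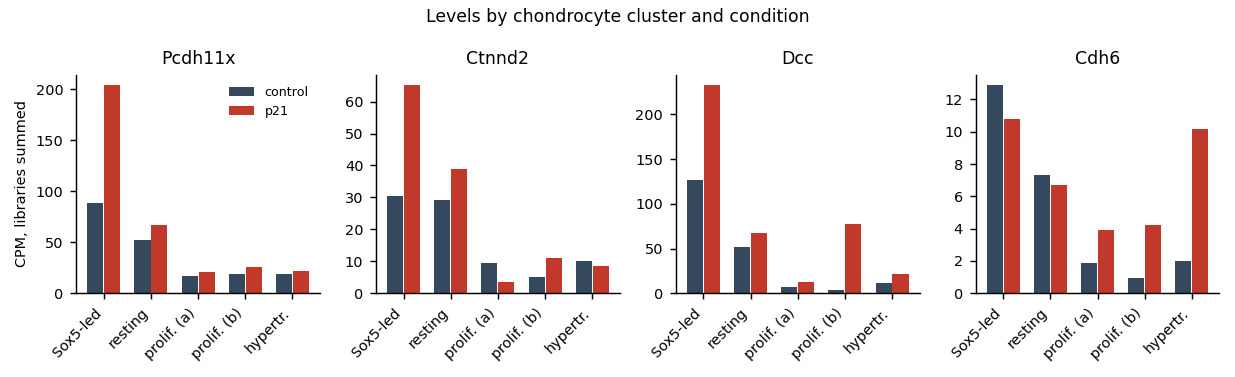
CPM (y axis, from 0, the 4 libraries summed, so no error bar is given) of each gene in the 5 chondrocyte clusters for control and p21 cells; (a) and (b) are the proliferative chondrocyte-like clusters, (b) being the deeper one led by Neat1. The Sox5-led cluster has the tallest bars for Pcdh11x, Ctnnd2 and Dcc, with 204, 65.2 and 233 CPM in p21 cells.

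When the Sox5-led cluster was left out, an alternative added after the data were seen, the log2 difference in chondrocytes was 0.33 for Pcdh11x and 0.31 for Ctnnd2, against 0.97 and 1.02 with it. Dcc and Cdh6 were then at 1.37 (SE 0.39) and 1.05 (SE 0.48), against 1.03 and 0.53 with it. These values do not place the Dcc difference outside the cluster. It held 71.0% of the Dcc UMIs of p21 chondrocytes and 33 of the 42 p21 cells with 10 or more. Of the Dcc UMIs left in p21 cells, 221 were in the Neat1-led cluster, 81 of them in 1 cell. Chondrocytes were also chosen as any kept cell with at least 3 summed UMIs of Acan, Matn1, Matn4 and Col9a1, without scaling for depth. Pcdh11x was then at 0.37, Ctnnd2 at 0.60, Dcc at 0.53 and Cdh6 at 0.77. That choice is looser than the clusters, since the other cells also held chondrocyte markers (4084 to 6886 CPM in control) and can pass it. All 4 differences stayed above 0 in both alternatives.

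The members were not evenly spread over cells, and a few cells with many UMIs carried much of each level. In p21 chondrocytes 46.4% of cells had a UMI of Pcdh11x, against 28.9% of control chondrocytes, at median depths of 24721 and 21310 UMIs. Cells with 10 or more Pcdh11x UMIs numbered 44 of 545 in p21 (8.07%) and 8 of 356 in control (2.25%), and they held 55.9% and 37.0% of its UMIs. Of those 44 p21 cells, 41 were in the Sox5-led cluster. The p21 cell with the most Pcdh11x UMIs held 4.91% of them.

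Dcc was more uneven. It had a UMI in 30.3% of p21 and 23.6% of control chondrocytes, but 42 p21 cells (7.71%) and 14 control cells (3.93%) had 10 or more UMIs and held 77.1% and 62.5% of them. Only 15 p21 cells made up 50% of its UMIs, with up to 122 in 1 cell. Ctnnd2 had a UMI in 21.3% of p21 and 18.5% of control chondrocytes, and 10 p21 cells and 3 control cells with 10 or more UMIs held 39.5% and 20.9%. With the libraries summed, the share of cells with Ctnnd2 thus differed little, but by library it was higher with p21 only in S1 (44.0% against 16.9%). It was lower with p21 in S2 (9.09% against 15.1%), S3 (19.5% against 24.1%) and S4 (19.8% against 21.4%). The p21 cells that had Ctnnd2 held more UMIs of it, 4.41 against 2.47 per positive cell. Cdh6 was the opposite case, with a UMI in 13% of p21 and 6.46% of control chondrocytes, no p21 cell with 10 or more, and 1.65 UMIs per positive p21 cell.

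**Figure D4:**
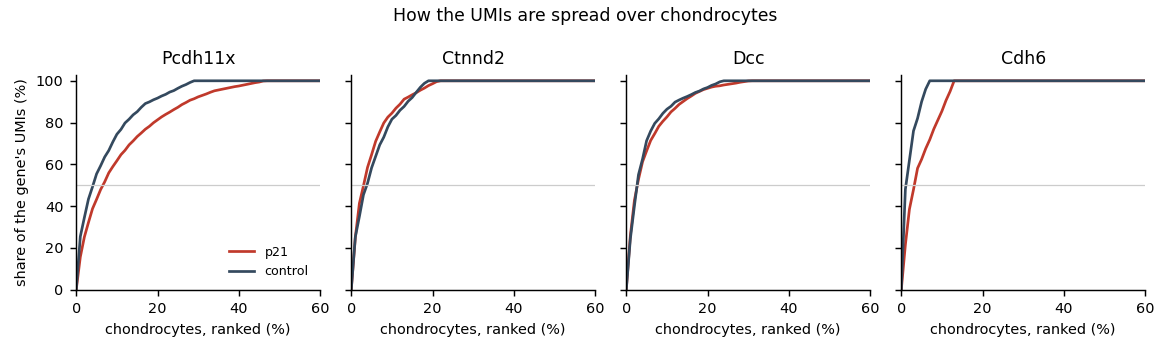
Cumulative share of a gene's UMIs (y axis, %) against chondrocytes ranked from most to fewest UMIs of that gene (x axis, % of cells), for p21 and control, with a line at 50%. The Dcc curves rise most steeply among the genes in p21 cells, where 2.75% of cells hold 50% of the UMIs, against 6.61% for Pcdh11x.

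Counting at most 3 UMIs of a gene per cell, also added after the data were seen, gave log2 differences of 0.66 for Pcdh11x, 0.23 for Ctnnd2, 0.39 for Dcc and 0.70 for Cdh6. The limit lowered the differences of Pcdh11x, Ctnnd2 and Dcc and raised that of Cdh6, fitted at 0.53 without it. Cells with few UMIs weigh more in these values. Leaving out the 3 cells of each sum with the most UMIs gave 1.31 for Pcdh11x, 0.96 for Ctnnd2 and 1.49 for Dcc and no value for Cdh6, which no longer passed the low-count filter. A fixed 3 cells is a larger part of a small sum. Control sums were smaller than p21 sums in S3 (54 against 169 cells) and S4 (98 against 293). In S1 (65 against 50) and S2 (139 against 33) they were larger. The change from the fitted values is therefore not read. With every cell thinned to 5000 UMIs, which left out 40 p21 and 33 control chondrocytes, 26.5% of p21 and 15.2% of control cells had Pcdh11x, 10.1% and 8.05% Ctnnd2, 19.8% and 13% Dcc and 3.37% and 1.86% Cdh6. The thinned share was higher with p21 in 3 of 4 libraries for Pcdh11x, where S1 had 20.4% and 24.6%.

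**Figure D5:**
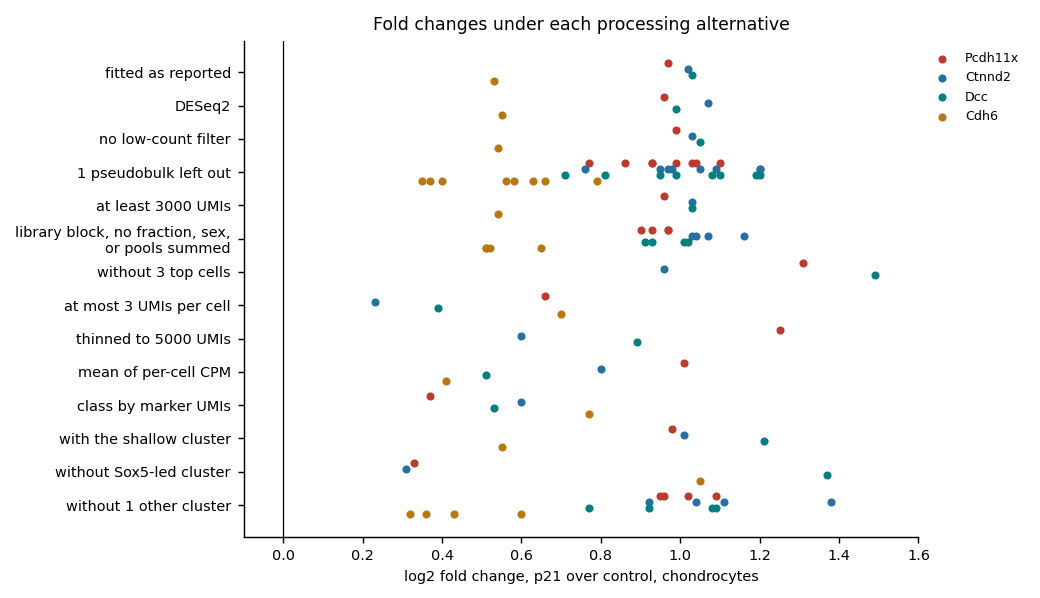
Log2 fold change of p21 over control in chondrocytes (x axis) under each way of processing the counts (y axis), with 1 point per fit and 1 colour per gene. All points lie to the right of 0. Ctnnd2 was at 0.23 with at most 3 UMIs per cell, and Pcdh11x at 0.33 without the Sox5-led cluster.

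Free RNA in the droplets can give such UMIs to any cell. In 46 immune-like cells (median 11496 UMIs), taken as a reference, 60.9% had a UMI of Pcdh11x, 17.4% of Ctnnd2, 39.1% of Dcc and 13% of Cdh6. In 51 muscle-like cells (median 21239 UMIs) the shares were 43.1%, 3.92%, 7.84% and 23.5%. Of these references, 41 immune-like and 34 muscle-like cells came from S4, and 93.5% and 88.2% were p21 cells. They therefore say little about control cells or the other libraries. The chondrocyte shares of Pcdh11x, Dcc and Cdh6 lay below the higher of these shares, and that of Ctnnd2 lay within the counting interval of the immune-like share (7.82% to 31.4%) and above the muscle-like one. The chondrocyte shares are therefore not read as shares of cells expressing the genes. The references differ from each other for Dcc, and 1 muscle-like cell held 33 Cdh6 UMIs, so neither is known to be free of expression. Cells with 10 or more UMIs numbered 0 for Pcdh11x and Ctnnd2 and 1 for Dcc among the immune-like cells, and 0 for these 3 genes among the muscle-like cells.

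Within the named chondrocyte clusters, shallow barcodes held little of the signal. Cells under 3000 UMIs, 24 p21 and 13 control, held 0.294% to 0.855% of the members' UMIs in p21 chondrocytes. Cells from 10000 to under 30000 UMIs held 41.6% of the Pcdh11x UMIs of p21 chondrocytes and cells of 30000 and more held 54.2%. In the first of these bands Pcdh11x was at 108 CPM in p21 and 33.5 in control, Ctnnd2 at 48.3 and 25.6, and Dcc at 127 and 61. In the deeper band they were at 81.5 and 42.9, 24.9 and 11.7, and 101 and 29.9, so p21 was the higher in both bands for these genes. In the 69 p21 and 87 control cells from 3000 to under 10000 UMIs, Pcdh11x was at 124 and 62.3 CPM, but Ctnnd2 was at 20.7 and 38.1 and Dcc at 108 and 111, so these were not higher with p21 there.

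Outside the named chondrocyte clusters 1 shallow cluster did carry Dcc. It held 75 cells, all p21 and 73 of them from S3, with a median of 3176 UMIs, led by AY036118 and Cmss1 and left unnamed. Dcc was at 989 CPM there with a UMI in 90.7% of cells, and its 309 UMIs were 5.83% of those in the p21 cells outside the chondrocytes. Cdh6 had 5 UMIs in that cluster and Ctnnd2 had 3. Clusters this shallow were given no name, and Epyc, a proliferative chondrocyte marker, was also among its leading genes. It may thus hold chondrocytes. With the shallow cluster that matched chondrocyte markers counted as chondrocytes, added after the data were seen, the Dcc log2 difference in chondrocytes was 1.21, against 1.03 without it.

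Among p21 chondrocytes of at least 5000 UMIs, the members had lower summed levels in cells with a Cdkn1a UMI than in cells without one. Pcdh11x was at 73.8 CPM in the 254 cells with Cdkn1a and 122 CPM in the 251 cells without, Ctnnd2 at 19.9 and 54.3, Dcc at 98.2 and 129, and Cdh6 at 5.86 and 9.96. The exception by library was Pcdh11x in S3, at 100 CPM with and 88.4 CPM without Cdkn1a. Since transgene reads map mostly to WPRE by the study's account, a Cdkn1a UMI need not mark a cell with the p21 transgene. Cells with Cdkn1a were deeper (median 31998 against 21868 UMIs) and fewer of them were in the Sox5-led cluster (28.7% against 42.6%). Cdkn1a itself was at 221 CPM in hypertrophic chondrocyte-like cells, against 35.8 to 57.3 CPM in the other chondrocyte clusters. The part of each of these was not tested. Summed control chondrocytes were also lower with Cdkn1a, for example 34.9 and 47.9 CPM for Pcdh11x. By library this did not hold for Pcdh11x in S3 (39.8 with, 37.6 without) and S4 (45.2 and 42.2), Ctnnd2 in S4 (18.6 and 13.6) or Dcc in S2 (54.6 and 42.4).

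No difference in the members was detected by the tdT label in chondrocytes. None of the 4 was called by edgeR or by DESeq2 between tdT-positive and tdT-negative chondrocytes, and 0 had an unadjusted p under 0.05, where 0.00845% of 11836 genes were called in each direction. The log2 differences, tdT-positive minus tdT-negative, were 0.04 for Pcdh11x (95% interval -0.32 to 0.40), 0.37 for Ctnnd2 (-0.11 to 0.84), -0.08 for Dcc (-0.58 to 0.43) and -0.09 for Cdh6 (-0.75 to 0.56). The adjusted p was 1.000 for each in edgeR's test, which did not pair the 2 fractions of an embryo pool. With the pool as a block the differences were 0.08 (SE 0.12), 0.27 (SE 0.16), -0.03 (SE 0.13) and -0.09 (SE 0.31) in the same order. None of the 4 was called in that fit (edgeR adjusted p 0.931 to 0.999), where 14 genes were called in all. The change of the p21 difference with the fraction was called for none of the 4, with 0 at an unadjusted p under 0.05 and 0 by DESeq2, and its intervals were wide, for example -0.69 to 0.85 for Pcdh11x and -1.10 to 1.03 for Dcc. Across all 12376 genes that interaction called 0% in either direction by edgeR, 0 genes by DESeq2 and 278 genes at an unadjusted p under 0.05.

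Pcdh11x lies on the X chromosome, and in other cells its male sums were higher than its female sums in 4 of 4 libraries, at 144 and 122 CPM (p21) and 135 and 138 CPM (control) in male sums against 97.7 and 86.7 CPM (control) and 109 and 114 CPM (p21) in female sums. In an edgeR fit with sex beside fraction and condition, added after seeing the data, the log2 difference of male over female was 0.41 (SE 0.09, adjusted p = 0.226), where 0.0276% of 14492 genes were called higher in male cells and 0.0345% lower. The call depended on the fit, with an adjusted p of 0.0864 by DESeq2, 0.0454 with the library as a replicate block and 0.0131 without the low-count filter, and the difference was 0.35 to 0.48 with 1 sum left out. In chondrocytes, where 0.0808% of 12376 genes were called higher in male cells and 0.0404% lower, Pcdh11x had the opposite sign (-0.32, SE 0.16, edgeR adjusted p = 0.481). Dcc in chondrocytes was lower in male sums by the same fit (-0.63, SE 0.20, edgeR adjusted p = 0.257), with an adjusted p of 0.000649 without the low-count filter, 0.109 with the library block and 0.176 by DESeq2. Sex here is the same as the exchange of condition between collections, so neither value can be told apart from a difference between collections in how p21 and control cells varied.

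Long genes as a class had more positive than negative differences in p21 chondrocytes. Of 180 tested genes other than the members spanning at least 500 kb, 64.4% had a positive log2 difference (median 0.14), against a median of 0.01 for genes of 10 to 100 kb and -0.06 for genes under 10 kb. In other cells 67.0% of genes of at least 500 kb were positive (median 0.09). With the members counted in, 183 such genes were tested, and Dcc, Ctnnd2 and Pcdh11x ranked 18, 19 and 20, above the upper quartile of 0.45. Genes of at least 500 kb made up 1.91% to 2.49% of all chondrocyte UMIs. Malat1, a nuclear RNA, was at 12799 to 13649 CPM in p21 and 10518 to 12663 CPM in control chondrocytes, and the part of nuclear RNA in the members' values was not tested. Long genes were also lower in chondrocytes than in other cells, with a median log2 difference of -0.85 for this span class beside -1.27, -0.58 and -0.83 for Dcc, Ctnnd2 and Pcdh11x.

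Other genes of the members' families were counted over 6 lists. In p21 against control chondrocytes edgeR called 0 of 14 cadherins and catenins, 0 of 12 protocadherins and large cadherins, 0 of 10 netrins and netrin receptors, 0 of 7 slits and robos, 0 of 26 semaphorins and plexins and 0 of 19 ephrins and Eph receptors. The numbers at an unadjusted p under 0.05 were 3, 3, 5, 3, 3 and 5, and DESeq2 called 1 gene, among the ephrins and Eph receptors. Over all 11836 genes, 1161 had an unadjusted p under 0.05 and DESeq2 called 110. Median log2 differences were -0.02, 0.39, 0.40, 0.04, 0.17 and 0.34 in the same order, against -0.01 over all genes, and the lists do not hold the members. Positive values were seen for 5 of 14, 10 of 12, 8 of 10, 4 of 7, 17 of 26 and 18 of 19 genes, again in that order, against 49.1% of all genes. The cadherins and catenins, the family of Cdh6 and Ctnnd2, were thus the list with the lowest share of positive values.

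The most abundant relatives in chondrocytes are given as background. They were chosen by abundance and the members on this contrast, so nothing is read from the relatives' smaller log2 differences. Ctnnb1, the β-catenin gene, was at 312 ± 21.5 CPM in p21 and 315 ± 19.6 in control (SD, n = 4 each; log2 difference -0.01, SE 0.08). Pcdh9, another δ-protocadherin, was at 390 ± 78.7 and 294 ± 32.4 (0.42, SE 0.14). Unc5c, which encodes a netrin receptor that can pair with DCC, was lower with p21 in the fitted value, at 627 ± 146 and 854 ± 214 (-0.46, SE 0.17). Robo2, a Slit receptor, had 0.32 (SE 0.10), Sema5a 0.20 (SE 0.15) and Epha7 0.26 (SE 0.15), and the edgeR adjusted p of these 6 ran from 0.271 to 0.991.

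Between chondrocytes and other cells the same families mostly went the way of the members. EdgeR called 13 of 22 cadherins and catenins lower and 5 higher, 9 of 15 protocadherins lower and 1 higher, 5 of 12 netrin genes lower and 1 higher, 6 of 8 slits and robos lower and 1 higher, 14 of 28 semaphorins and plexins lower and 4 higher, and 11 of 20 ephrins and Eph receptors lower and 5 higher. Median log2 differences were -1.16, -0.98, -0.11, -0.99, -0.42 and -0.49, against -0.01 over all genes. Cdh2 (N-cadherin) was at 8.13 ± 3.67 CPM in chondrocytes and 105 ± 26.7 in other cells (SD, n = 8 each), and Epha3 at 7.0 ± 6.67 and 236 ± 80. Unc5c was the 1 gene of its list called higher, at 732 ± 202 CPM in chondrocytes and 408 ± 57.9 in other cells (log2 0.95, SE 0.09, edgeR adjusted p = 1.0e-06), while the netrin receptor Dcc was lower. Cdh5, an endothelial cadherin, was higher in chondrocytes (log2 4.10), but 176 of its 229 chondrocyte UMIs came from the p21 cells of S4 and 4 of 8 sums had none. All 6 endothelial markers were detected in chondrocytes and summed to 169 to 245 CPM with p21 and 89.2 to 227 CPM in control, and all 5 neuron markers summed to 9.10 to 11.4 CPM and 7.46 to 11.3 CPM. Their part in the members' values was not tested.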

How the data were processed

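Single-cell libraries (10x Genomics Chromium Single Cell 3' chemistry 3.1) were made from 4 sorted fractions. The authors deposited whole-number UMI counts per gene and barcode from Cell Ranger 7.2.0, aligned to GRCm38 with transgene sequences added. CellBender and doublet removal are in the study's methods, but barcodes under 1000 UMIs were present, and whether these counts were corrected, and whether introns were counted, is not given in the sources used here. The files held no annotation of cells.

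The 4 genes and all gene lists were chosen with earlier results of these data known. Barcodes with at least 1000 UMIs, 500 genes and at most 10% mitochondrial counts were kept, and each needed at least 2 sex-linked UMIs with 80% of them from 1 sex. Barcodes of both sexes (277) and the top 5% of doublet scores were left out. Leiden clustering (resolution 1, 30 components, 2000 variable genes, scanpy 1.11.5) excluded the members, list, sex, transgene and cell-cycle genes, and clusters were named from fixed markers, so the classes are rebuilt and may differ from the study's. Of the kept cells, 2 barcode sequences occurred in more than 1 library. UMIs were summed per library and condition (104023046 UMIs in all barcodes) and fitted with edgeR 4.0.16 (TMM, filterByExpr, quasi-likelihood test, Benjamini-Hochberg over all genes, threshold 0.05), with the sorted fraction as covariate, or the condition in the tdT contrast, or the library and condition as a pair between cell classes. The study's own linear model on scaled pseudobulks was replaced because the values are counts. DESeq2 1.42.0 was an alternative. Shares and ratios carry exact 95% binomial intervals for counting error only. The fits were tested on simulated counts with known changes.

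Named genes were the members, Cdkn1a and the transgenes, in each list up to 2 called genes per direction with the largest change and the most abundant one, and for each member the 3 genes of most similar pattern (log2 of CPM plus 10, clusters of at least 20 cells per library). Of those, the text gives the leading ones. Tool versions were R 4.3.3, scipy 1.17.1 and leidenalg 0.10.2.

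Whether a shared library paired the conditions was checked by the correlation of deviations from group means. It was -0.13 to 0.01 in chondrocytes and -0.03 to 0.20 in other cells, so the library numbers did not pair them. The 2 fractions of an embryo source, sorted from the same embryos, correlated at 0.19 to 0.47 in chondrocytes and 0.12 to 0.46 in other cells. The pool thus pairs them in the tdT contrast, but the main fit of that contrast did not use the pairing. The fit with the pool as a block is given as an alternative.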

Additional observations from a re-analysis of the deposited data

Results flagged for a closer look

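Cdh6 in the p21 chondrocytes of S2 stood apart from the other p21 libraries, at 12.9 TMM-scaled CPM with the next library at 7.43. That sum held 33 cells. Dcc in the p21 other cells of S4 stood apart on the low side, at 153 CPM with the next library at 203. Chance alone marks about 1 in 20 such groups of 4 by this gap test.

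Pcdh11x in other cells went opposite ways in the collections. The log2 ratio of p21 to control was 0.56 and 0.49 in the first collection (S1, S2) and -0.31 and -0.28 in the second (S3, S4). Sex was swapped between the collections, and the difference between male and female cells, 0.41 on the log2 scale, had an edgeR adjusted p of 0.226.

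Barcodes that passed the depth filter but had too few sex-linked counts for a condition also held the members. In S3, where the median of these 453 barcodes was 1952 UMIs, Dcc was at 142 CPM against 126 CPM in the kept control cells, Ctnnd2 at 28.0 against 20.6 CPM and Cdh6 at 9.94 against 9.01 CPM. Pcdh11x was below the kept control level there, at 54.1 against 115 CPM.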

How the results depend on the processing

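Of the members' p21 against control differences in chondrocytes, none changed direction under the alternatives run. The values that moved by more than the spread between sums were 0.37 for Pcdh11x with chondrocytes chosen by marker UMIs, 0.33 for Pcdh11x and 0.31 for Ctnnd2 without the Sox5-led cluster, and 0.23 for Ctnnd2 at 3 UMIs per cell. The last 3 values came from alternatives chosen after seeing the data. The spread was the SD over libraries of each gene's own log2 ratio, so genes whose libraries disagree are flagged less easily. Dcc, fitted at 1.03, was not flagged at 0.39 with 3 UMIs per cell, 0.51 as a mean of per-cell CPM and 0.53 with marker UMIs. Cdh6 gave no value without its 3 top cells or with thinned cells, since it did not pass the low-count filter. Leaving out 1 sum at a time gave 0.77 to 1.10 for Pcdh11x, 0.76 to 1.20 for Ctnnd2, 0.71 to 1.20 for Dcc and 0.35 to 0.79 for Cdh6. In other cells that range was -0.02 to 0.22 for Pcdh11x, with the negative values without S1 (p21 or control) or the S2 control. All 4 members stayed lower in chondrocytes than in other cells in 13 of 13 settings, with 6655 to 7893 genes called in all (6655 to 7439 with 1 sum left out). Directions of members that were never called turned with 1 sum left out. In the tdT contrast the ranges were -0.10 to 0.26 for Pcdh11x, -0.32 to 0.26 for Dcc and -0.34 to 0.06 for Cdh6. In the interaction they were -0.22 to 0.71 for Pcdh11x, -0.14 to 0.92 for Ctnnd2, -0.63 to 0.88 for Dcc, with 0.02 by DESeq2, and -1.05 to 0.07 for Cdh6.

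The count of genes called between p21 and control chondrocytes moved from 27 to 110 by DESeq2, 398 without the low-count filter, 73 with sex in the model, 3 with the fractions of a pool summed, 7 with chondrocytes chosen by marker UMIs, and 2, 3 and 41 without the Neat1-led, Sox5-led and first proliferative cluster. With the library as a replicate block it was 14, and it was 1 to 28 with 1 sum left out (1 without the p21 sum of S4, 2 without that of S3). In other cells the count of 1 became 9 by DESeq2, 281 without the filter, 0 without the fraction, 3 with sex, 0 with pools summed and 1 to 3 with 1 sum left out. In the tdT contrast the count of 2 became 10 by DESeq2, 167 without the filter, 14 with the embryo pool as a replicate block and 1 to 4 with 1 sum left out. In the interaction the count of 0 became 29 without the filter and 0 to 2 with 1 sum left out. The replicate blocks called no member in the tdT contrast, but the library block called Pcdh11x between male and female other cells (adjusted p = 0.0454 against 0.226 in edgeR). The causes were not tested. Sums of 33 and 50 cells limit the p21 chondrocytes of S2 and S1.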

Other observations

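Most chondrocytes held a UMI of at most 1 of the 4 genes. Of 545 p21 chondrocytes, 173 had a UMI of none of them, 202 of 1, 114 of 2, 49 of 3 and 7 of all 4. Of 356 control chondrocytes, 151 had none, 145 had 1, 51 had 2, 7 had 3 and 2 had all 4. The cells without any were 31.7% of p21 and 42.4% of control chondrocytes, and 21.5% and 26.3% of the other cells.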
